A study of Mus musculus with 12 samples.

Results

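The genes described here are factors of acrosome biogenesis and Golgi traffic, listed as genes whose loss causes globozoospermia (round-headed sperm without an acrosome) or other acrosome defects. They were taken by name from the deposited table, and all 9 listed genes (Dpy19l2, Gopc, Pick1, Agfg1, Spata16, Vps54, Smap2, Csnk2a2 and Golga3) were found among its 28643 usable gene symbols.

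The acrosome is a secretory organelle that caps the sperm nucleus and is needed to pass the egg coat. In round spermatids, vesicles leave the Golgi apparatus, fuse into a granule on the nuclear envelope and spread over the nucleus. GOPC and PICK1 are interacting PDZ-domain proteins of vesicle traffic from the Golgi, AGFG1 (also called HRB) has an ArfGAP-type domain and acts where these vesicles fuse, and SMAP2 is an ArfGAP that works with clathrin at the trans-Golgi network. GOLGA3 is a golgin, a coiled-coil protein of the Golgi surface, and VPS54 is a subunit of the GARP tether, which returns vesicles from endosomes to the trans-Golgi network. DPY19L2 sits in the inner nuclear membrane and holds the acrosome to the nucleus, SPATA16 is a testis protein of the Golgi and the forming acrosome, and CSNK2A2 is the alpha prime catalytic subunit of casein kinase 2.

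The study asked how loss of IGF2BP3, an RNA-binding protein that reads m6A, changes mRNA and its translation in spermatids. Round spermatids of male mice aged 8 weeks were flow sorted in the presence of cycloheximide, and the mice were heterozygous (Igf2bp3+/-, the control) or homozygous (Igf2bp3-/-) for a Cas9 frameshift. Whole extract was sequenced as RNA-seq and mRNA on 4 or more ribosomes as ribosome nascent-chain complex sequencing (RNC-seq), with 3 replicates in each of the 4 groups, 12 libraries in all. Every animal thus carried at least 1 mutant allele and no wild-type group entered the comparison; homozygous males vary in fertility, and by the methods those with impaired fertility were chosen. The allele is not restricted to germ cells. The study calls the replicates biological and sorted cells from each mouse, while the labels do not tie a library to an animal.

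Values are FPKM, a fragment count scaled to transcript length and to the size of the library. No counts were at hand and sequencing depth is unknown. Symbols with a value above 0 numbered 23554 to 25633 in RNA-seq and 21490 to 22797 in RNC-seq libraries. All 6 round spermatid markers (Acrv1, Spaca1, Tssk1, Catsper3, Crem and H1fnt) were at 1 FPKM or more in every library, and the 5 Sertoli cell markers summed to at most 1.15 FPKM, with 0.237 to 0.308 in Igf2bp3+/- and 0.51 to 0.783 in Igf2bp3-/- RNC-seq. The 5 Leydig cell markers summed to between 14.5 and 21.5 FPKM in Igf2bp3+/- and between 46.1 and 52.4 FPKM in Igf2bp3-/- RNA-seq libraries, and to between 6.12 and 13.9 against between 50.3 and 100 FPKM in RNC-seq. Summed round spermatid markers also did not overlap between genotypes (1195 to 1311 FPKM in Igf2bp3+/- and 1367 to 1549 in Igf2bp3-/- RNA-seq, 1092 to 1299 against 1312 to 1773 in RNC-seq), nor did the 5 macrophage markers (3.07 to 4.71 against 4.84 to 6.03 FPKM in RNA-seq, 2.82 to 4.08 against 5.06 to 7.16 in RNC-seq). Over all libraries the 4 spermatocyte markers summed to between 41.6 and 124 FPKM and the 4 spermatogonial markers to between 5.07 and 7.8 FPKM. The 4 elongating spermatid markers (Prm1, Prm2, Tnp1 and Tnp2) summed to between 8042 and 20816 FPKM. These ranges overlapped between genotypes in both assays. The study also measured Prm1, Prm2, Tnp1 and Tnp2 mRNA by qPCR in sorted round spermatids, so their sum does not measure the share of elongating cells. The part of the marker shifts between genotypes in any genotype value given below was not tested. The targeted mRNA, Igf2bp3, lay between 33.36 and 38.61 FPKM in Igf2bp3+/- and between 31.43 and 32.47 FPKM in Igf2bp3-/- RNA-seq libraries, a log2 difference of -0.20 ± 0.09 (SE; limma adjusted p = 0.336). Because a frameshift need not lower the mRNA of its gene, this level checks no label.

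The 9 mRNAs spanned about 3 orders of magnitude. Spata16 was the most abundant in Igf2bp3+/- RNA-seq, at 126.8 FPKM ± 2.33 (SD, n = 3), and Dpy19l2 followed at 105.6 ± 7.55. Agfg1 (38.3 ± 2.90), Pick1 (34.71 ± 1.31) and Golga3 (26.31 ± 1.98) formed a middle tier, and Csnk2a2 lay at 11.07 ± 0.811. Gopc (1.831 ± 0.220) and Smap2 (0.7937 ± 0.135) were low, and Vps54 was lowest, at 0.1437, 0.08091 and 0.1115 FPKM in the 3 libraries. The libraries of no neighbouring pair in this order overlapped, and the order was the same in Igf2bp3-/- RNA-seq, again with no overlap between neighbours. FPKM divides by transcript length, so wide gaps between genes may be read from these levels. The annotation behind the lengths is not stated, so close ranks, such as Agfg1 over Pick1, are uncertain.

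**Figure D1:**
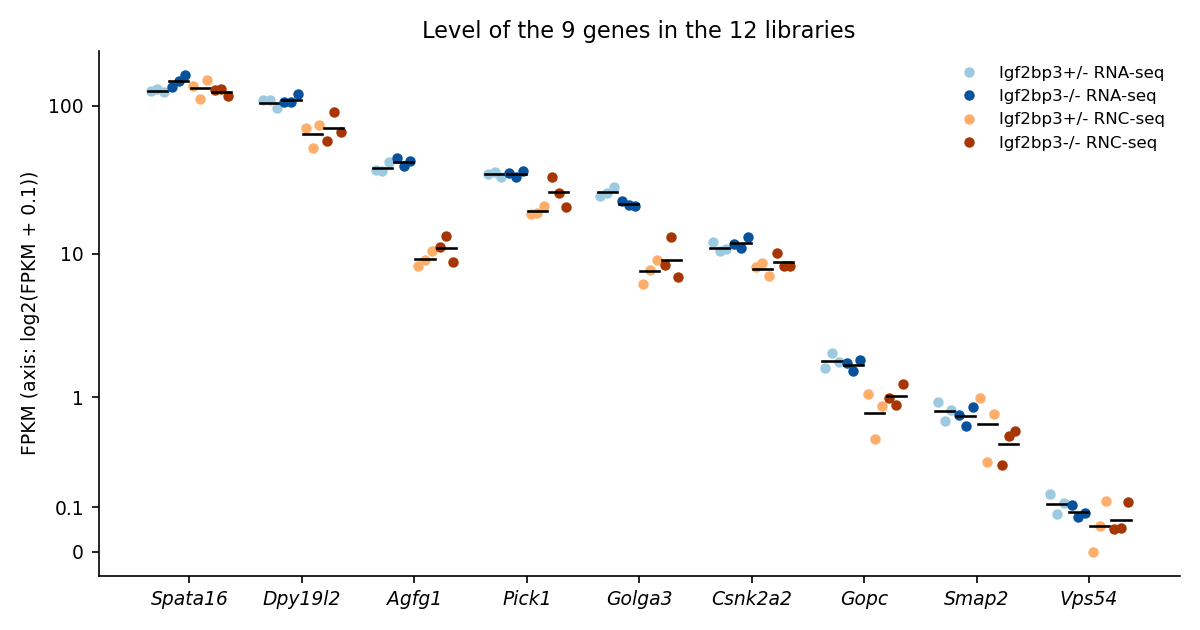
FPKM of the 9 genes in the 12 libraries, on a log2(FPKM + 0.1) axis; each point is a library and each black line the mean of a group on that axis. Spata16 sits at or above 111.2 FPKM in every library and Vps54 at or below 0.1437, and the RNC-seq points of Agfg1 and Golga3 lie well under their RNA-seq points.

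Among polysomal mRNAs the order was different. Spata16 (132.5 FPKM ± 19.6, n = 3) and Dpy19l2 (65.64 ± 11.7) stayed at the top in Igf2bp3+/- RNC-seq, but Pick1 (19.56 ± 1.49) stood above Agfg1 (9.304 ± 1.10) with no overlap between their libraries. Agfg1 overlapped Csnk2a2 (7.926 ± 0.804), and Csnk2a2 overlapped Golga3 (7.703 ± 1.41). Gopc (0.7915 ± 0.294) and Smap2 (0.679 ± 0.346) also overlapped. In Igf2bp3-/- RNC-seq Agfg1, Golga3 and Csnk2a2 overlapped in turn, while Gopc and Smap2 did not. Vps54 was listed at 0, 0.04986 and 0.1196 FPKM in the Igf2bp3+/- and at 0.04232, 0.04391 and 0.1148 FPKM in the Igf2bp3-/- RNC-seq libraries, below the mean of 0.1 FPKM required for a test, so 8 of the 9 genes were tested throughout.

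The genes lie on 9 different chromosomes of GRCm38, and all are protein coding in GENCODE M21. Spata16 spans chromosome 3, 26637620 to 26983212 on the plus strand, and Dpy19l2 spans chromosome 9, 24557047 to 24696293 on the minus strand. Agfg1 lies at chromosome 1, 82839483 to 82901182 (plus), Golga3 at chromosome 5, 110176701 to 110226470 (plus), and Pick1 at chromosome 15, 79229173 to 79249484 (plus). Gopc lies at chromosome 10, 52335850 to 52382124 (minus), Smap2 at chromosome 4, 120968317 to 121017247 (minus), Vps54 at chromosome 11, 21239281 to 21321136 (plus), and Csnk2a2 at chromosome 8, 95446096 to 95490039 (minus). None has a near-identical copy over at least 50% of its longest transcript, but 18.6% of the exonic bases of Pick1 are shared with a gene on the same strand, Gm49486, which matches 38.8% of the longest Pick1 transcript at 95% identity or more, so that the Pick1 values are uncertain over that stretch. The overlap was 0.794% for Gopc (Gm26741, opposite strand), 0.191% for Agfg1 (Gm22396), and 0 for the other 6.

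RefSeq (GRCm38.p6) upstream sequence was at hand for 8 of the 9 genes (all but Smap2). The cAMP response element of many spermatid promoters, TGACGTCA on either strand, was in none of the members' windows, and among all 32851 promoter windows 1.55% held it. The core TGACG on either strand, which 17.8% of all windows held, was found in Gopc alone, starting at base -161 relative to the first transcribed base. The all-promoter windows run 250 bases before to 50 after each start, and a match is a run of letters, not a shown binding site. The 250 bases upstream of the most abundant member (Spata16), of the least abundant one (Vps54) and of Gopc, whose match is in capitals on the strand that reads CGTCA, read 5′ to 3′ as follows.
Spata16 (chr3:26637381-26637630, plus strand): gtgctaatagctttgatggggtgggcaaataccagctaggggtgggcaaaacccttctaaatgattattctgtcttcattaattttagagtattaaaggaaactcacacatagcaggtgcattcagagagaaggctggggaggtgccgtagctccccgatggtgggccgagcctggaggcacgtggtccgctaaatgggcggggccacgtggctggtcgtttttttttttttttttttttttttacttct
Vps54 (chr11:21238782-21239031, plus strand): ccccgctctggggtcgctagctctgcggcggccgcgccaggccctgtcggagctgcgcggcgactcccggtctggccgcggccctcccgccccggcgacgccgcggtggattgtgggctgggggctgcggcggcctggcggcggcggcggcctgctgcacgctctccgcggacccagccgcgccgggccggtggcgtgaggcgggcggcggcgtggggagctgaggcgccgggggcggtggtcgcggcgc
Gopc (chr10:52382125-52382374, minus strand): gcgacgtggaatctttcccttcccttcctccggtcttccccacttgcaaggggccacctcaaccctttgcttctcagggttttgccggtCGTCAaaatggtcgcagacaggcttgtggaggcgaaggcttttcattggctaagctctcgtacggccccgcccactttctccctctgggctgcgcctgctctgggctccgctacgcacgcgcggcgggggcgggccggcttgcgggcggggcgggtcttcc

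Several members dominated their family in these cells, and others were the minor form. Dpy19l2 exceeded its paralog Dpy19l1 34.3-fold in mean FPKM of Igf2bp3+/- RNA-seq (3.082 ± 0.283 for Dpy19l1), and Dpy19l3 246-fold, while its ratio to Dpy19l4 was 208, 525 and 510 in the 3 libraries. Agfg1 exceeded Agfg2 by 324, 396 and 153-fold in the 3 libraries, with Agfg2 at or below 0.2717 FPKM in every library of the group. Csnk2a2 exceeded Csnk2a1, the other catalytic subunit of casein kinase 2, 12.4-fold. Smap2 was the reverse case, since the paralog Smap1 stood 92.5-fold above it at 73.41 FPKM ± 7.66, although 58.1% of the exonic bases of Smap1 overlap B3gat2 on the opposite strand and strand use is not stated. Every library of each larger gene lay above every library of the smaller one.

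Subunits of shared complexes were also unequal. Csnk2b, the regulatory subunit of casein kinase 2, was 51.9-fold above Csnk2a2 in mean FPKM of Igf2bp3+/- RNA-seq, at 574.5 ± 38.2, and 93.6-fold above it in RNC-seq. The other subunits of GARP and of the related EARP complex were all above Vps54: Vps52 at 32.38 FPKM ± 3.50, Vps50 (the EARP counterpart of Vps54) at 7.894 ± 1.15, Vps51 at 4.906 ± 0.994 and Vps53 at 3.317 ± 0.0958. Of the exonic bases of Vps51, 18% overlap Gm28374 and Tm7sf2 on the same strand, so its level is uncertain. The overlap was 3.93% for Vps52 (Rps18, opposite strand) and 2.88% for Vps53 (Glod4, same strand). Vps50 stood 70.5-fold above Vps54 in mean FPKM, and 59.3, 106 and 58.9-fold in the 3 libraries. These folds are rough, as Vps54 was near the 0.1 FPKM limit for a test. Pick1 was 19-fold above its binding partner Gopc, and this ratio ranged from 17.4 to 21.4 over the 3 libraries.

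**Figure D2:**
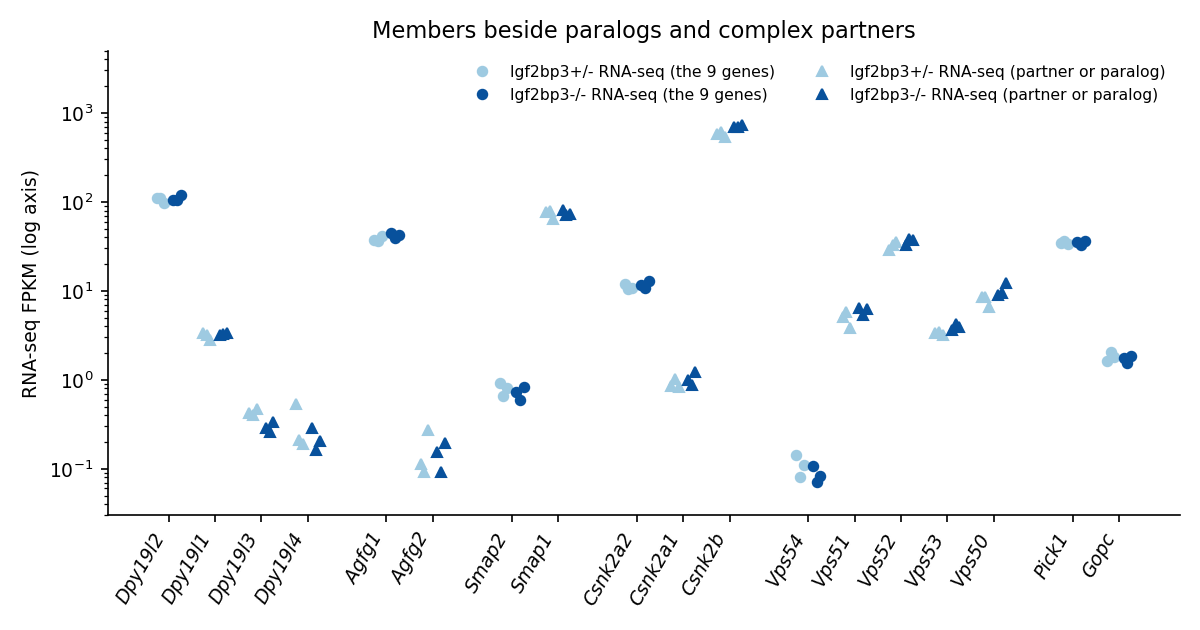
RNA-seq FPKM (log axis) of members (circles) and of their paralogs or complex partners (triangles), with each library as a point, light for Igf2bp3+/- and dark for Igf2bp3-/-. Dpy19l2, Agfg1 and Csnk2a2 lie above their paralogs, whereas Smap2 lies under Smap1 and Vps54 under every other subunit shown.

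Polysome loading, the log2 ratio of RNC-seq to RNA-seq that the study calls translational efficiency (TE), set most members below the typical gene. In Igf2bp3+/- cells 6 of the 8 tested mRNAs were lower in RNC-seq and none was higher (limma adjusted p under 0.05), where 25.2% of the 18414 genes tested were called lower and 18.6% higher. The median loading of the 8 was -0.76 on the log2 scale, against -0.10 over all genes tested. The RNC-seq libraries lay wholly below the RNA-seq libraries for the same 6 members, as they did for 32.9% of all genes. FPKM is relative within a library, so a loading says how an mRNA ranks against the others and not what fraction of its molecules carried ribosomes.

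Agfg1 was the least loaded member. Its RNA-seq values in Igf2bp3+/- were 37.06, 36.23 and 41.62 FPKM, and its RNC-seq values were 8.299, 9.132 and 10.48. The log2 loading was -2.03 ± 0.16 (SE, limma adjusted p = 3.08e-06), and 2.51% of all genes tested were at or below it. Taken back from the log2 scale, this is a ratio of 0.244 between RNC-seq and RNA-seq, each relative to its own libraries. In Igf2bp3-/- the values were 44.5, 39.64 and 42.53 FPKM in RNA-seq and 11.19, 13.23 and 8.844 in RNC-seq, a log2 loading of -1.94 ± 0.16 (adjusted p = 3.02e-05). The assays did not overlap in either genotype.

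Golga3 was the next least loaded member. It measured 24.54, 25.94 and 28.44 FPKM in RNA-seq and 6.249, 7.804 and 9.055 in RNC-seq of Igf2bp3+/-, a log2 loading of -1.77 ± 0.21 (adjusted p = 3.16e-05). In Igf2bp3-/- it measured 22.91, 21.42 and 21.15 FPKM in RNA-seq and 8.43, 12.99 and 6.984 in RNC-seq, giving -1.24 ± 0.21 (adjusted p = 0.000982). Here too all RNC-seq libraries were under all RNA-seq libraries, and the widest spread was that of the Igf2bp3-/- RNC-seq libraries.

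The interacting pair Gopc and Pick1 was depleted to a smaller extent. Gopc gave 1.63, 2.067 and 1.797 FPKM in RNA-seq against 1.046, 0.4703 and 0.8586 in RNC-seq of Igf2bp3+/-, a log2 loading of -1.17 ± 0.26 (adjusted p = 0.00266). Pick1 gave 34.89, 35.92 and 33.32 FPKM against 18.55, 18.86 and 21.27, a log2 loading of -0.83 ± 0.16 (adjusted p = 0.001). For both genes the assays did not overlap in Igf2bp3+/-. In Igf2bp3-/- Gopc was at 1.769, 1.544 and 1.854 against 0.9764, 0.8775 and 1.245 FPKM, and Pick1 at 35.32, 33.18 and 36.43 against 33.05, 25.86 and 20.88 FPKM. The RNC-seq libraries were again the lower ones, but the loadings of -0.70 ± 0.26 for Gopc (adjusted p = 0.0629) and -0.42 ± 0.16 for Pick1 (adjusted p = 0.0668) missed the limit. Without Igf2bp3-/- RNC-seq replicate 1, in which Pick1 was highest, the Pick1 loading was -0.59 with an adjusted p of 0.0133. Gopc passed the limit in Igf2bp3-/- with a pseudocount of 1 (adjusted p = 0.0397) and, because all libraries share an estimate of the spread, without Igf2bp3+/- RNC-seq replicate 1 (adjusted p = 0.0477) or 2 (adjusted p = 0.0239).

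Dpy19l2, the nuclear membrane anchor, was lower on polysomes in both genotypes. It measured 110.2, 109.7 and 96.88 FPKM in RNA-seq and 70.85, 52.25 and 73.82 in RNC-seq of Igf2bp3+/-, a log2 loading of -0.70 ± 0.18 (adjusted p = 0.00614). In Igf2bp3-/- it measured 105.9, 105.8 and 120.3 against 58.4, 91.69 and 66.73 FPKM, a loading of -0.64 ± 0.18 (adjusted p = 0.0179), with no overlap between assays in either genotype. The call in Igf2bp3-/- was lost without RNA-seq replicate 3 (adjusted p = 0.0663), RNC-seq replicate 1 (0.0707) or RNC-seq replicate 3 (0.0581) of that genotype.

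Csnk2a2 had the smallest called value. Its RNA-seq levels were 11.99, 10.46 and 10.77 FPKM and its RNC-seq levels 8.092, 8.634 and 7.051 in Igf2bp3+/-, a log2 loading of -0.48 ± 0.15 (adjusted p = 0.021) with no overlap. The call was lost with median centring of the libraries (-0.31, adjusted p = 0.105), without Igf2bp3+/- RNA-seq replicate 1 (adjusted p = 0.0823) and without Igf2bp3+/- RNC-seq replicate 3 (adjusted p = 0.0797). In Igf2bp3-/- the levels were 11.6, 10.89 and 12.97 against 10.2, 8.217 and 8.275 FPKM, and the loading of -0.41 ± 0.15 missed the limit (adjusted p = 0.0625); without Igf2bp3-/- RNC-seq replicate 1 it was -0.51 with an adjusted p of 0.0373. Csnk2b, its regulatory partner, was called in the other direction in Igf2bp3+/- (0.37 ± 0.12, adjusted p = 0.0282).

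Spata16 and Smap2 were not called in either genotype. Spata16 stood at 126.3, 129.4 and 124.8 FPKM in RNA-seq and at 136.7, 111.2 and 149.6 in RNC-seq of Igf2bp3+/-, so the assays overlapped, and the log2 loading was 0.05 (95% interval -0.24 to 0.35, adjusted p = 0.787). In Igf2bp3-/- it stood at 133.1, 147.4 and 162.5 against 127.4, 130.2 and 116.9 FPKM, with all RNC-seq libraries below and a loading of -0.24 (interval -0.53 to 0.06, adjusted p = 0.219). Smap2 varied widely for its low level, at 0.9248, 0.6547 and 0.8015 against 0.9872, 0.3043 and 0.7454 FPKM in Igf2bp3+/- and 0.7273, 0.598 and 0.8357 against 0.2825, 0.4994 and 0.5454 in Igf2bp3-/-. Its loadings were -0.30 ± 0.35 (adjusted p = 0.514) and -0.62 ± 0.35 (adjusted p = 0.209). The Smap2 value in Igf2bp3+/- turned to 0.11 without RNC-seq replicate 2, and that of Spata16 to -0.04 without RNC-seq replicate 3 of that genotype.

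In Igf2bp3-/- cells 3 of the 8 mRNAs (Agfg1, Golga3 and Dpy19l2) were called lower on polysomes and none higher, where 14.0% of all genes tested were called lower and 12.5% higher. The median of the 8 loadings was -0.63, against -0.04 over all genes. All 8 had every RNC-seq library below every RNA-seq library, as did 21.5% of all genes tested. Median centring of the libraries shifted the loading of the median gene by 0.17 in Igf2bp3+/- and by 0.04 in Igf2bp3-/-, and turned the calls over all genes in Igf2bp3+/- from 3420 higher and 4639 lower to 4725 higher and 3621 lower; after centring, 5 of the 6 members called lower in Igf2bp3+/- were still called, with the exception of Csnk2a2, and 3 members were called in Igf2bp3-/-. The share of CT010467.1, the most abundant transcript, in the FPKM total was 9.22% to 13.3% in Igf2bp3+/- RNA-seq libraries and 15.9% to 19.4% in Igf2bp3+/- RNC-seq libraries, against 5.68% to 9.25% and 8.14% to 14.6% in Igf2bp3-/-; its part in the loadings was not tested.

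**Figure D3:**
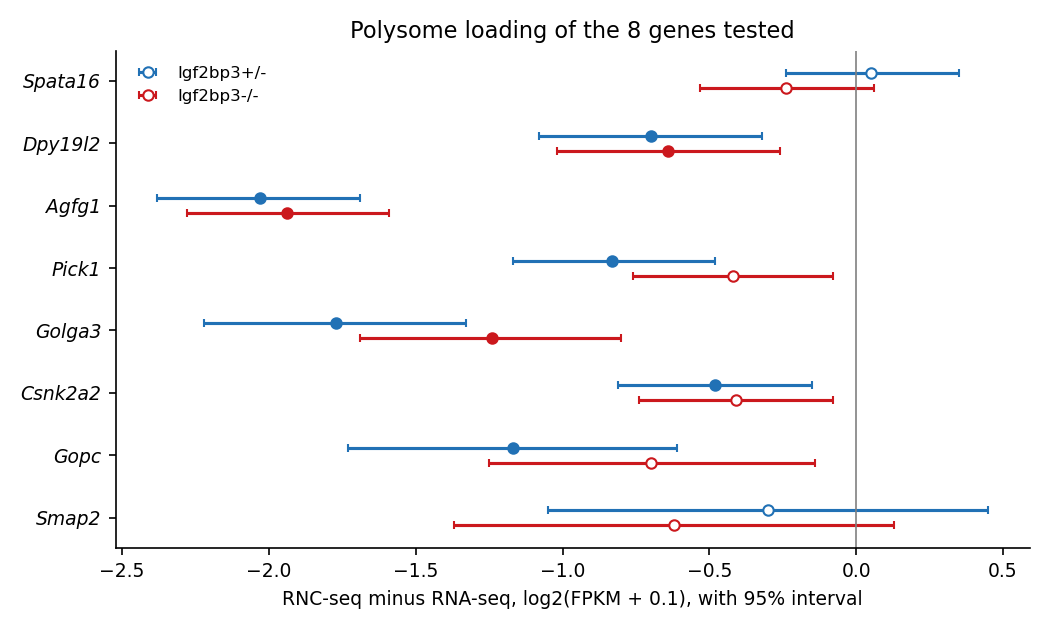
Log2 loading (RNC-seq minus RNA-seq, log2(FPKM + 0.1)) of the 8 tested members, with 95% intervals, in blue for Igf2bp3+/- and red for Igf2bp3-/-; filled points passed the adjusted p limit of 0.05. Agfg1 (-2.03 and -1.94) and Golga3 (-1.77 and -1.24) lie farthest to the left, and Spata16 lies at 0.05 and -0.24.

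Loading was lower for longer transcripts over the whole table. Across 17945 genes with a GENCODE M21 length, 97.5% of those tested, Spearman's rho between loading and the length of the longest transcript was -0.473 in Igf2bp3+/- and -0.447 in Igf2bp3-/-; the points are genes, which share libraries and are not independent. In Igf2bp3+/- the median loading was 0.33 for 7895 genes under 2000 bases and -0.97 for 674 genes of 8000 bases or more, and 9.09% and 59.6% of these genes were called lower. The least loaded members, Agfg1 (8044 bases) and Golga3 (8132 bases), are the longest, and Spata16 (2022 bases) is the shortest. Both Agfg1 and Golga3 lay under the median of their length class, as did Gopc (5850 bases, class median -0.59), Pick1 (2559 bases) and Dpy19l2 (3442 bases; class median of both -0.25), and Smap2 (2905 bases) was close to that class median. Csnk2a2 (6779 bases, class median -0.82) and Spata16 (class median -0.25) lay above the medians of their classes. The part of length in the members' loadings was not tested further.

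Of 19 tested Golgi and trans-Golgi traffic genes, 12 were lower and 1 was higher on polysomes in Igf2bp3+/-, beside 25.2% and 18.6% of all genes. Their median was -0.54. In Igf2bp3-/- 8 were lower and none higher, beside 14.0% and 12.5% of all genes. The lowest were the long coiled-coil golgins Golgb1 (giantin, -2.87 ± 0.30), Golga4 (golgin-245, -2.29 ± 0.22) and Trip11 (GMAP-210, -1.68 ± 0.22), all called again in Igf2bp3-/- at -1.77 ± 0.30, -1.83 ± 0.22 and -1.29 ± 0.22. The higher one was the small GTPase Arf1 (0.41 ± 0.14, adjusted p = 0.031), at 0.24 ± 0.14 in Igf2bp3-/- (adjusted p = 0.234). Among the 10 tested paralogs and partners, 2 were higher in Igf2bp3+/- (Vps50 at 0.83 ± 0.24 and Csnk2b) and 2 lower (Dpy19l3 at -0.87 ± 0.28 and Vps52 at -0.64 ± 0.23), and none was called in Igf2bp3-/-, where 0 of 10 had an unadjusted p under 0.05, beside 38.7% of all genes. The median loading of these 10 was -0.09 in Igf2bp3+/- and -0.25 in Igf2bp3-/-.

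The 20 further genes whose loss affects the acrosome were split in direction. In Igf2bp3+/- 8 were lower on polysomes and 4 higher, beside 25.2% and 18.6% of all genes tested, with a median of -0.23. In Igf2bp3-/- 5 were lower and 2 higher, beside 14.0% and 12.5% of all genes tested. Tmf1, a Golgi coiled-coil protein, had a log2 loading of -1.68 ± 0.19 in Igf2bp3+/- and -1.85 ± 0.19 in Igf2bp3-/-. Galnt3, a Golgi enzyme of O-glycosylation, gave -1.09 ± 0.18 and -0.76 ± 0.18, and Rimbp3, a manchette protein, gave -1.01 ± 0.21 and -0.71 ± 0.21, all 3 called in both genotypes. The higher ones included short mRNAs of the acrosome itself: Spink2, a protease inhibitor (643 bases), at 1.57 ± 0.17 and 1.20 ± 0.17, and Spaca1, an acrosomal membrane protein (1197 bases), at 0.64 ± 0.16 and 0.52 ± 0.16, called in both genotypes. Zpbp2, a zona pellucida binding protein (1577 bases), gave 0.62 ± 0.13 in Igf2bp3+/- (adjusted p = 0.00208) and 0.20 ± 0.13 in Igf2bp3-/- (adjusted p = 0.286).

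**Figure D4:**
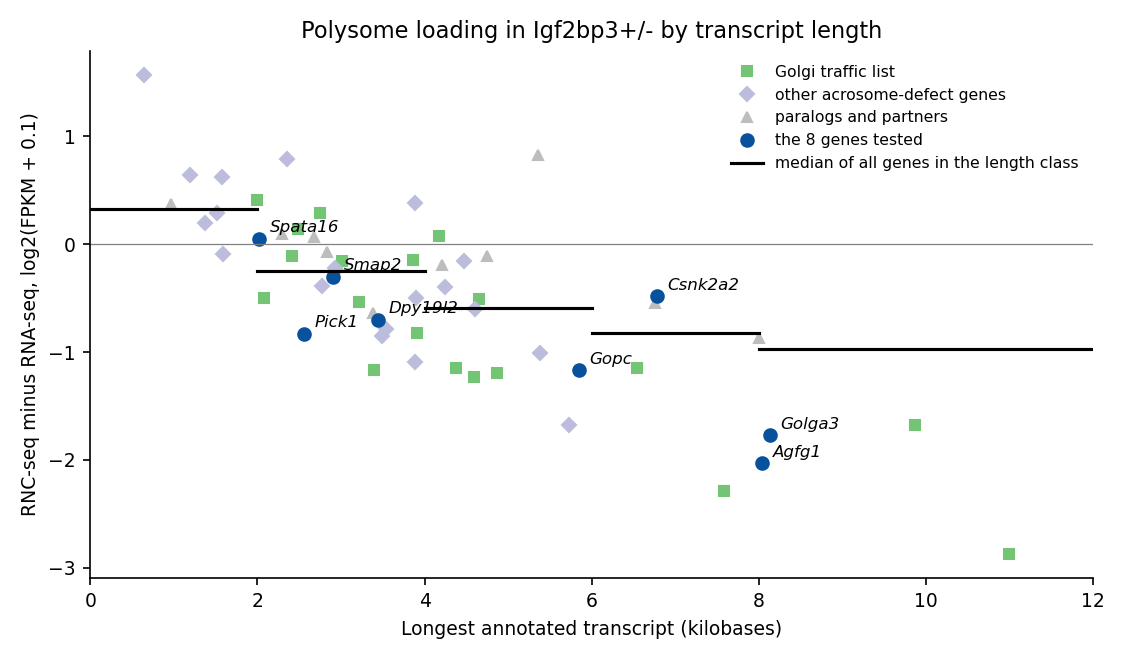
Log2 loading in Igf2bp3+/- against the longest annotated transcript (kilobases) for the 8 tested members (named circles), the Golgi traffic list (squares), other acrosome-defect genes (diamonds) and paralogs and partners (triangles); black lines are the medians of all genes in 5 length classes, the last drawn to the end of the axis. The class medians step down from 0.33 to -0.97, and Agfg1 and Golga3 lie below the last of them.

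Loss of the remaining Igf2bp3 copy left no member past the limit in any genotype comparison (Igf2bp3-/- minus Igf2bp3+/-). In RNA-seq 0 of the 8 were called, where 0.256% of all 20352 genes tested were called; at an unadjusted p under 0.05 there were 2 of 8, beside 15.7% of all genes. Those 2, Spata16 and Golga3, were also the only members whose genotypes did not overlap, as was so for 22.7% of all genes tested. Spata16 was higher in all 3 Igf2bp3-/- libraries (133.1 to 162.5 FPKM, against 124.8 to 129.4), a log2 difference of 0.21 ± 0.09 (adjusted p = 0.312, between 0.204 and 0.748 over 12 alternatives). Golga3 was lower in all 3 (21.15 to 22.91 FPKM, against 24.54 to 28.44), a difference of -0.27 ± 0.10 (adjusted p = 0.252, between 0.192 and 0.793). In these bulk libraries fewer cells of a type and less RNA per cell cannot be told apart. The other 6 differed by between -0.12 (Smap2) and 0.14 (Agfg1).

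In RNC-seq 0 of the 8 members were called, where 0.115% of 19051 genes were, and 0 of 8 had an unadjusted p under 0.05, as 6.48% of all genes had. The genotypes overlapped for every member, whereas 11.3% of all genes showed no overlap. The differences were 0.42 ± 0.22 for Pick1 (95% interval -0.07 to 0.91), 0.39 ± 0.34 for Gopc, 0.26 ± 0.27 for Golga3, 0.24 ± 0.23 for Agfg1, 0.16 ± 0.22 for Csnk2a2, 0.13 ± 0.23 for Dpy19l2, -0.08 ± 0.20 for Spata16 and -0.44 ± 0.43 for Smap2. Over all genes the median difference was 0.13, and median centring took it to 0.01 and the calls from 15 higher and 7 lower to 6 higher and 7 lower. After centring the differences were 0.01 for Dpy19l2, 0.04 for Csnk2a2, 0.12 for Agfg1, 0.14 for Golga3, 0.27 for Gopc and 0.30 for Pick1.

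The TE difference between genotypes, tested as the genotype-by-assay interaction, was called for 0 of 8 members and for 0.00543% of the genes tested, which is 1 gene of 18414. At an unadjusted p under 0.05 there were also 0 of 8, beside 7.13% of all genes. The ratio of RNC-seq to RNA-seq FPKM for Golga3 was 0.293 in Igf2bp3+/- and 0.434 in Igf2bp3-/- from the group means, a log2 TE difference of 0.53 (95% interval -0.10 to 1.16, adjusted p = 0.716). For Pick1 it was 0.564 and 0.76, a difference of 0.41 (interval -0.07 to 0.89, adjusted p = 0.716), and for Gopc 0.432 and 0.6, a difference of 0.47 (interval -0.32 to 1.26, adjusted p = 0.766). Agfg1, the least loaded member, had ratios of 0.243 and 0.263 and a difference of 0.10 (interval -0.39 to 0.59). Spata16 (1.04 and 0.846) and Smap2 (0.856 and 0.614) had differences of -0.29 (interval -0.71 to 0.13) and -0.32 (interval -1.38 to 0.74). Dpy19l2 and Csnk2a2 differed by 0.06 and 0.07; these values and that of Agfg1 changed sign with centring, which moved the median of all genes by -0.13. Since the TE difference was not called for Gopc, Pick1 or Csnk2a2, their loading call in Igf2bp3+/- alone is not a shown difference between genotypes.

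None of the 3 context lists had a gene called between genotypes in RNA-seq (51 genes tested), RNC-seq or TE (49 genes tested in each) by limma. At an unadjusted p under 0.05 there were 11 of 51 in RNA-seq (7 higher and 4 lower; 15.7% of all genes), 1 of 49 in RNC-seq (higher; 6.48% of all genes) and 4 of 49 in TE (3 higher and 1 lower; 7.13% of all genes). The median RNA-seq differences were 0.16 for partners, -0.01 for Golgi traffic and 0.04 for the acrosome list, beside 0.04 for the 8 members and 0.05 for all genes.

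**Figure D5:**
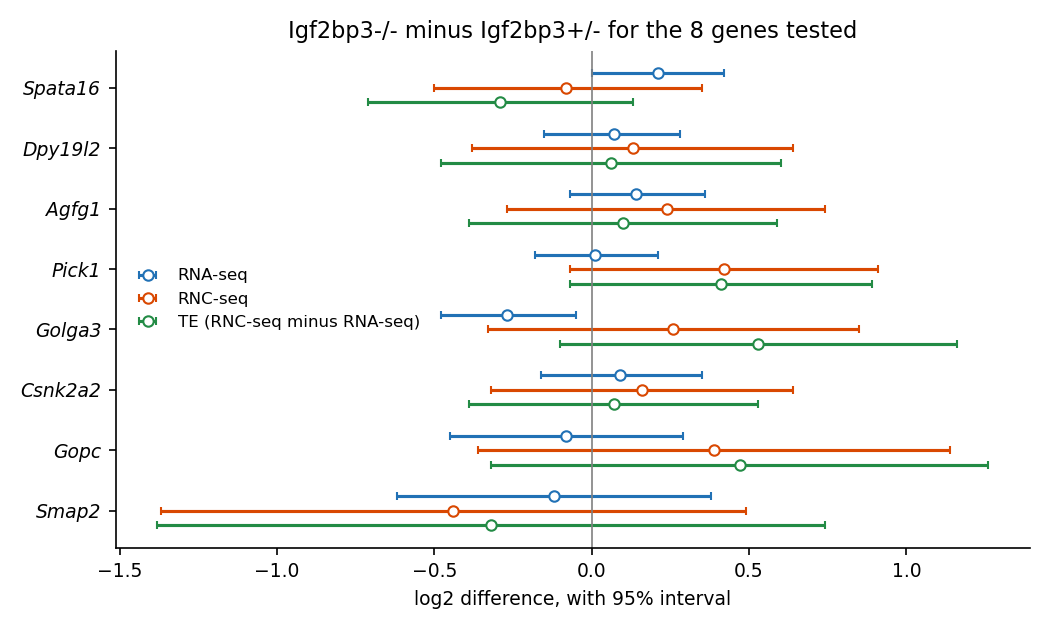
Log2 difference between genotypes (Igf2bp3-/- minus Igf2bp3+/-) for the 8 tested members in RNA-seq (blue), RNC-seq (orange) and TE (green), with 95% intervals; open points did not pass the adjusted p limit, and no point is filled. The RNA-seq intervals are the narrowest, and those of Golga3 (-0.48 to -0.05) and Spata16 (0.00 to 0.42) are at or beyond 0.

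Across the 12 libraries Agfg1 and Golga3 were the most alike of the members, with a Pearson r of 0.97 on the log2 scale, a description over libraries that differ mainly by assay. The r with the other members lay between 0.01 and 0.54 for Spata16 and between 0.01 and 0.53 for Vps54. Among 12258 other genes with a mean of at least 1 FPKM, the pattern closest to Agfg1 was that of Efcab5 (r = 0.995), the closest to Golga3 that of 2700049A03Rik (0.997), and the closest to Dpy19l2 that of Cse1l (0.985). The closest were Taf11 for Pick1 (0.985), Agbl3 for Gopc (0.963), Pkd2l2 for Spata16 (0.974), Pqlc1 for Csnk2a2 (0.972), Orc2 for Smap2 (0.95) and 4921523L03Rik for Vps54 (0.889), each over the same 12 libraries. Each r is the highest of 12258, so a high value alone says little. Vps54 (at most 0.1437 FPKM) and Smap2 (at most 0.9872 FPKM) were low in every library, so their closest patterns are uncertain.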

How the data were processed

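The authors deposited a single FPKM table (28668 symbols by 12 libraries of sorted mouse round spermatids), made per the labels and methods by trimming with Trim Galore 0.6.6, alignment to GRCm38 with HISAT2 and quantification with StringTie 2.1.7. The annotation release, read counts and use of strand are not given in the sources used here, and the labels and methods name different library kits and instruments. Columns named WT are Igf2bp3+/- libraries by the labels. Symbols that a spreadsheet had turned into dates (25) were dropped; they held 0.0995% of the FPKM total.

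Values were analysed as log2(FPKM + 0.1), without rescaling, with limma 3.58.1 (lmFit and eBayes with trend) in R 4.3.3; this scale understates changes of low genes. Genotype was fitted per assay (6 libraries, genes whose mean exceeded 0.1 FPKM). TE and loading came from a fit of the 12 libraries, for genes whose mean exceeded 0.1 FPKM in RNA-seq and in RNC-seq. Tests were two-sided, adjusted by Benjamini-Hochberg over all genes tested, with a limit of 0.05, and the scripts were tested on simulated data. The study's DESeq2 tests on counts and its TE ratio without a test were replaced by these fits, since no counts were at hand. Depth is unknown, so no counting interval is given. Positions and lengths came from GENCODE M21 (27839 symbols matched), near-identical copies from BLAST 2.17.0 at 95% identity, and upstream sequence from RefSeq.

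The members and lists were chosen with earlier results of these data known. All 9 members are named. In a context list, every called gene is named where at most 5 were called, and otherwise the 3 with the largest absolute log2 value in each direction. Paralogs and partners are named beside their member, and for likeness the gene with the highest r. Alternatives were another pseudocount, no filter, centring, a replicate block, library weights, another set of libraries in the fit, and leaving out each library.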

Additional observations from a re-analysis of the deposited data

How the results depend on the processing

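The members called stayed at 0 of 8 in RNA-seq, RNC-seq and TE between genotypes under every alternative run. For loading in Igf2bp3+/- the number was 6, or 5 with centring, and ranged from 5 to 6 when a library was left out. In Igf2bp3-/- it was 3, or 4 with a pseudocount of 1, and ranged from 2 to 4 when a library was left out. Agfg1 and Golga3 were lower on polysomes in both genotypes, and Gopc, Pick1 and Dpy19l2 in Igf2bp3+/-, under all 18 alternatives.

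Counts over all genes moved more. In RNA-seq the 52 called became 31 with no filter, 4 with the replicate block, 84 with library weights and 9 to 38 when a library was left out. In RNC-seq the 22 became 2 with no filter, 13 with centring, 48 in a fit over all 12 libraries and 0 to 20 when a library was left out; the 0, without Igf2bp3-/- RNC-seq replicate 1, went with 990 genes at an unadjusted p under 0.05 by limma. The 1 TE call became 0 with a pseudocount of 1 (1372 at an unadjusted p under 0.05 by limma), 0 with the replicate block (1502) and 0 with library weights (1495), and 1 to 2 when a library was left out. The 4886 loading calls in Igf2bp3-/- became 3089 to 6227 when a library was left out. The cause of these shifts was not tested.

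Sign changes touched only members that were not called. In RNA-seq the Pick1 difference became -0.03 with library weights and ranged from -0.02 to 0.05 when a library was left out, and that of Gopc from -0.16 to 0.00. In RNC-seq the ranges were -0.06 to 0.27 for Dpy19l2 and -0.20 to 0.02 for Spata16. For TE, centring gave -0.07 for Dpy19l2, -0.03 for Agfg1 and -0.06 for Csnk2a2, and leaving out a library gave -0.12 to 0.20, -0.04 to 0.25 and -0.03 to 0.14. Loading in Igf2bp3+/- ranged from -0.60 to 0.11 for Smap2 and from -0.04 to 0.17 for Spata16.

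Between assays, libraries with the same replicate number deviated from their group means with correlations between -0.0583 and 0.0894. For different numbers the correlations lay between -0.15 and 0.0807. With 3 libraries a group, these values cannot decide whether the numbers are pairs. The methods describe a shared extract, but the labels do not tie a library to an animal, so the main fits left the numbers unpaired. With the replicate block, 6 and 3 members were called for loading and 0 between genotypes. Unknown depth, 3 libraries a group and levels near or below 1 FPKM limit what could be seen for Gopc, Smap2 and Vps54.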
